A study of Mus musculus with 12 samples.

Results

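Uchl1 and 6 genes that supply ubiquitin or run the NEDD8 pathway were followed in cultured adult mouse sensory neurons. The 7 genes, Uchl1, Ubb, Nedd8, Nae1, Uba3, Ube2m and Ube2f, were taken by symbol from a table of 15391 genes, and all 7 were among the 8773 genes left by a filter on low counts. They were chosen by earlier measured values of these data: the IP value of Ube2f and the input value of Uchl1 had already been seen, and the other 5 were added for their place in the same pathways. Those values, and every other contrast of the 4 groups for these genes, are therefore given as a description with no test.

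The cultures were made from dorsal root ganglia, and the mice had the genotype RPL22HA+/+;Advillin-Cre+, which were preconditioned by a sciatic nerve injury before culture. Advillin-Cre is active mainly in sensory neurons and turns on an HA-tagged ribosomal protein L22, so that an anti-HA precipitate (IP) holds ribosome-bound RNA mostly of neurons, while input holds RNA of every cell in the lysate. Cultures received an AAV with a control construct or an AAV carrying shLarp1, a short hairpin against the RNA-binding protein Larp1, which gave 4 groups, an IP and an input for each virus. The labels give neither age nor sex of the mice, do not say which animals or cultures a column came from, and word the control virus differently for input and IP. Their extraction text speaks of freshly collected ganglia, whereas the source is given as cultured neurons.

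Each group had 3 columns of counts, 12 in all. Within a group, column totals varied by 0.0178% to 0.0471% (coefficient of variation), less than random sampling gives, and 6.98% to 7.62% of genes with at least 30 counts differed between columns at an unadjusted chi-square p under 0.05. The 3 columns were therefore summed and counted as 1 sample, so n = 1 per group and no replicate error of the conditions exists. Non-overlap of columns between groups, where named below, describes only counting spread within 1 sample per group. Its share over all genes was not computed, so it does not set these genes apart from others. Summed totals in IP were 9382094 counts with the control virus and 9530760 with shLarp1, and in input 1693039 and 2279226. Intervals below are 95% intervals of counting error only, because they rest on the summed counts of 1 sample per group. PCR copies without molecular identifiers are not independent molecules, so the intervals can be too narrow even for counting error. Below, higher or lower is used as a call for an interval that lies wholly beyond 1.5-fold. Larp1, the targeted gene, had 147, 141 and 154 counts in control IP against 55, 49 and 45 in shLarp1 IP, and 18 against 8 summed counts in input.

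Ubiquitin is made as head-to-tail chains, as from Ubb, or as a fusion with a ribosomal protein, as from Rps27a, and is cut to single units by deubiquitinases. Uchl1 is a deubiquitinase of the ubiquitin C-terminal hydrolase family, known as one of the most abundant proteins of neurons and as a stabiliser of free ubiquitin. NEDD8 is a ubiquitin-like protein: the heterodimer of Nae1 and Uba3 activates it, the conjugating enzymes Ube2m and Ube2f carry it, and cullins receive it. Ube2m is known to work with Rbx1 on most cullins and Ube2f with Rnf7 on Cul5, and the COP9 signalosome removes NEDD8 again.

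The start regions of the 7 genes are shown because Larp1 is known for binding messages whose first base is a C followed by a run of pyrimidines. Each line holds 10 bases before and 20 bases from the annotated start of the first RefSeq entry (GRCm38.p6), and capitals mark runs of at least 5 C or T. The files' own build is GRCm39, so these are reference windows and not starts observed in the reads.
Uchl1 (chr5:66676111-66676140, plus strand): cggtgcatgggggagttcgagCCCTCTTgg
Ubb (chr11:62551161-62551190, plus strand): tcggcctcaTCTTTgaCTCCTCaccaatca
Nedd8 (chr14:55671861-55671890, minus strand): gggaagcggcagcggcagcagcgaccacag
Nae1 (chr8:104534618-104534647, minus strand): gagggcgcttagtgcgcctgcgtgaggccg
Uba3 (chr6:97205628-97205657, minus strand): CCTCCTCCCTggctcggCTCTCCCTCCTTC
Ube2m (chr7:13038256-13038285, minus strand): aaaaaccgaagtgggcaggcgacggaaagt
Ube2f (chr1:91250294-91250323, plus strand): gtcacggcgcagTCCCCgccccgccacttc

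Over all 32851 windows of the RefSeq table, 46.4% held such a run on the sense strand. In 2.51% the annotated first transcribed base was a C followed by at least 4 pyrimidines. Of 76 windows of ribosomal protein genes, 65.8% held a run and 18.4% had that C and pyrimidines at the first transcribed base. All 7 genes matched the table, with 11 windows between them. None of the 11 had a C followed by 4 pyrimidines at the first transcribed base. The longest run reached 13 bases for Uba3, 7 for Uchl1 and 2 for Nedd8. These letters describe annotated windows, and no match says only that they are not at that base of the annotation.

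Uchl1 RNA stood opposite ways in the 2 fractions. In IP its counts were 10276, 10199 and 10327 with the control virus and 13512, 13402 and 13433 with shLarp1. Every shLarp1 column lay above every control column, and scaled to depth the level went from 2329 to 2745 CPM (counts scaled by TMM to a common depth), a log2 difference of 0.24 (0.22 to 0.26) that did not reach 1.5-fold. In input its counts were 609, 562 and 601 with the control virus and 314, 317 and 304 with shLarp1. The input columns did not overlap either, now with shLarp1 lower: 1450 against 667 CPM, 2.17-fold lower (log2 -1.12, -1.24 to -1.0). By raw counts Uchl1 moved from rank 40 to rank 24 of 15391 genes in IP and from rank 210 to rank 408 in input.

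In a bulk lysate fewer neurons and less Uchl1 RNA per neuron cannot be told apart. The 19 sensory neuron markers summed to 1479 to 1513 CPM in the control input columns and 1147 to 1213 in the shLarp1 input columns, a log2 difference of -0.34 (-0.44 to -0.24). The sum stood at -0.13 with DESeq2's size factors, -0.20 with upper-quartile factors, -0.57 with total counts and -0.11 with TMM on a control IP reference, settings applied to it after its value was seen. None of the 19 was called in input, and they ran both ways: 14 lay below 0, among them Tubb3 at -0.82 and Calca at -0.50, while Nefl had 0.32 and Avil 0.22. In IP their sum differed by -0.02 (-0.03 to -0.00), and by -0.01 to 0.11 under those scalings. Uchl1 counts divided by the neuron marker sum went from 0.970 to 0.566 in input, a change of -0.78 (-0.93 to -0.63), and from 0.486 to 0.581 in IP, a change of 0.26 (0.23 to 0.28). The input ratio reuses the value for which Uchl1 was chosen, and the part of neuron number in it was not tested.

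Markers of the other cells of a ganglion culture were measured in the same columns. In input, the 12 Schwann and satellite glia markers summed to 542 to 596 CPM with the control virus and 556 to 634 with shLarp1, and the 9 fibroblast markers to 721 to 808 and 767 to 872. Lum was at 0 in control input and Pdgfra in shLarp1 input. The 8 macrophage markers present in the table (Ptprc and Adgre1 were not in it) summed to 153 to 167 and 104 to 107, a log2 difference of -0.61 (-0.92 to -0.29), and the endothelial and mural markers to 148 to 153 and 76.4 to 109, with Pecam1 and Kdr at 0 in shLarp1 input. The part of these sums in the members' input values was not tested.

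Ubb, the polyubiquitin gene with a short chain of repeats, followed the pattern of Uchl1 at smaller size. Its IP counts were 5715, 5860 and 5995 with the control virus and 7267, 7627 and 7546 with shLarp1, again without overlap. That was a log2 difference of 0.20 (0.17 to 0.23). Its input counts were 499, 462 and 447 with the control virus and 336, 313 and 328 with shLarp1, which was 1.65-fold lower (-0.72, -0.84 to -0.61). The input call of Ubb did not hold under 3 of 4 other scalings (-0.58 to -0.49) or without any one of the 6 input columns (-0.54 to -0.46), whereas that of Uchl1 held under all of these. Leaving out any input column also moved the input median of all genes, from -0.14 to values between 0.06 and 0.15. Relative to the neuron marker sum, Ubb changed by -0.38 (-0.53 to -0.23) in input. Uchl1 counts per Ubb count changed by 0.04 (0.00 to 0.07) in IP and by -0.40 (-0.56 to -0.23) in input.

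Rps27a, a ubiquitin fusion gene, had -0.08 in IP and -0.23 in input and was called in neither. Ubiquitin-coding genes share near-identical sequence and have processed copies in the genome, so the division of reads among them, Ubb included, is uncertain.

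Nedd8, which encodes the modifier itself, was called in neither IP nor input. Its counts were 3060, 3122 and 3024 in control IP and 3517, 3506 and 3536 in shLarp1 IP. The columns did not overlap after scaling, but the difference was 0.05 (0.01 to 0.09). Its input counts were 310, 316 and 336 with the control virus and 367, 409 and 344 with shLarp1, a difference of 0.02 (-0.10 to 0.15) with overlapping columns. Gene length and the scaling to depth cancel in the change of a ratio between 2 genes. Against Nedd8 as a yardstick, Uchl1 counts went from 3.35 to 3.82 per Nedd8 count in IP (0.19, 0.15 to 0.24) and from 1.84 to 0.835 in input (-1.14, -1.31 to -0.97). Ubb counts per Nedd8 count went from 1.91 to 2.13 in IP (0.16, 0.11 to 0.20) and from 1.46 to 0.872 in input (-0.75, -0.92 to -0.58).

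**Figure D1:**
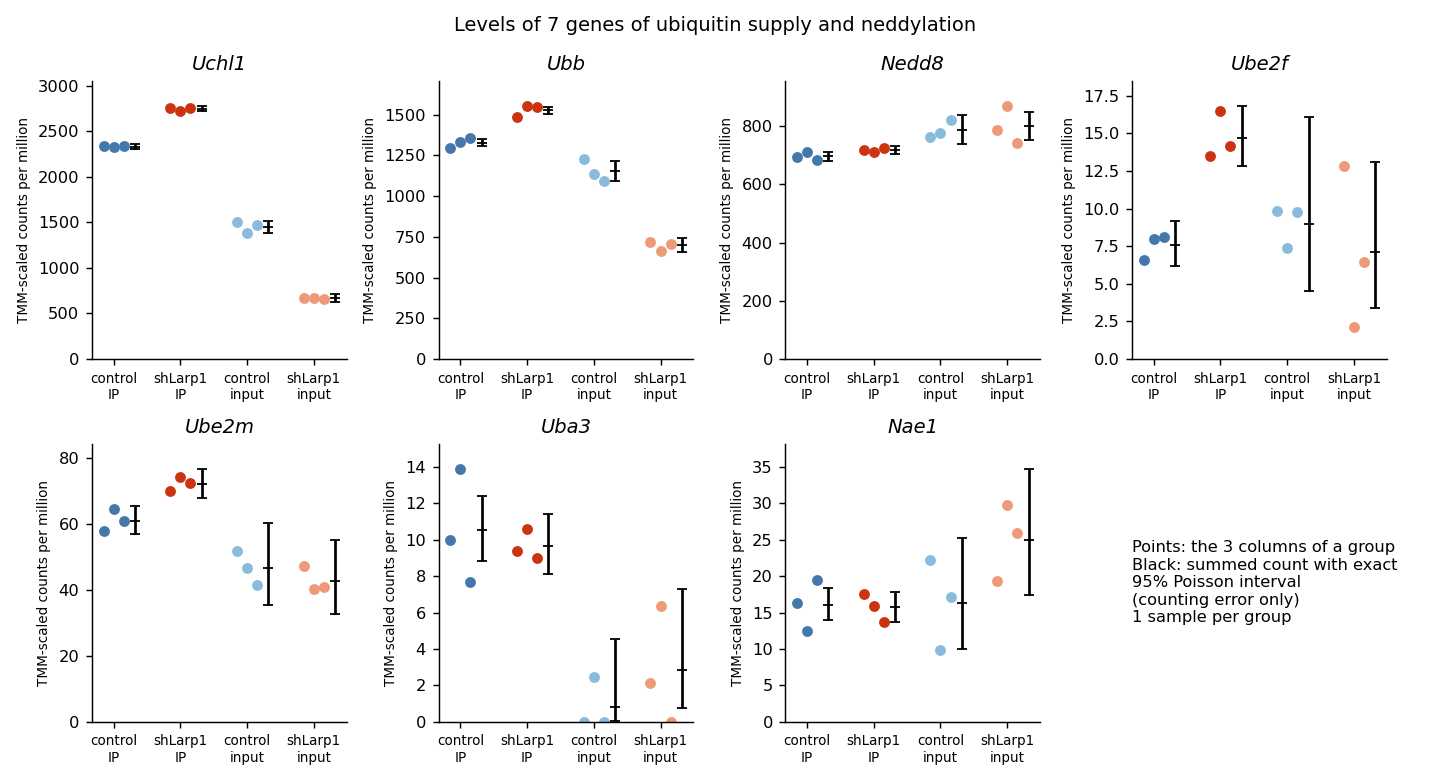
Level of each of the 7 genes in the 4 groups, in CPM on linear axes that start at 0 and differ between panels; points are the 3 columns, and the black mark and bar the summed count with its 95% counting interval. Uchl1 and Ubb are called lower with shLarp1 in input and lie above the control columns in IP without reaching 1.5-fold, Nedd8 is called in neither, and Ube2f is called higher in IP, at 14.7 against 7.56.

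The 2 subunits of the NEDD8-activating enzyme had few reads. Uba3, the catalytic subunit, had 44, 61 and 34 counts in control IP and 46, 52 and 44 in shLarp1 IP, with overlapping columns and a difference of -0.12 (-0.47 to 0.23). In input it had 1 count in all with the control virus and 4 with shLarp1, a ratio too thin to place (1.80, -1.53 to 7.42). Nae1, the regulatory subunit, had 72, 55 and 86 counts in control IP and 86, 78 and 67 in shLarp1 IP, also overlapping, at -0.04 (-0.31 to 0.24). Its 20 and 35 summed input counts differed by 0.61 (-0.22 to 1.48). In IP the ratio of Uba3 to Nae1 counts was 0.653 with the control virus and 0.615 with shLarp1, a change of -0.09 (-0.52 to 0.35).

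Of the 2 NEDD8-conjugating enzymes only Ube2f was called in IP, by the value for which it had been chosen. Ube2m had 255, 283 and 269 counts in control IP and 343, 365 and 353 in shLarp1 IP. The columns did not overlap, as was also so for Nedd8 at 0.05. The difference of Ube2m was 0.24 (0.11 to 0.38), equal to that of Uchl1 at this rounding, and was not called. Ube2f had 29, 35 and 36 counts in control IP and 66, 81 and 69 in shLarp1 IP, so that its lowest shLarp1 column stood above its highest control column. Its level was 7.56 CPM (6.15 to 9.20) with the control virus and 14.7 (12.8 to 16.8) with shLarp1, 1.94-fold higher (0.96, 0.61 to 1.32). The call was lost without control IP column 1 (0.87) or shLarp1 IP column 2 (0.88), with the difference itself little moved.

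Set against its partner enzyme, Ube2f gave 0.114, 0.124 and 0.134 counts per Ube2m count in the control IP columns and 0.192, 0.222 and 0.195 in the shLarp1 IP columns. The change of the summed ratio was 0.72 (0.35 to 1.08), an interval that spans 1.5-fold. It reuses the IP value for which Ube2f was chosen and is a description only. In input Ube2f had 11 and 10 counts in all and Ube2m 57 and 60. The input differences were -0.33 (-1.73 to 1.04) for Ube2f and -0.12 (-0.67 to 0.43) for Ube2m, and the change of their ratio was -0.21 (-1.55 to 1.13). At this depth an input change of Ube2f as large as that in IP could not have been told from none.

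**Figure D2:**
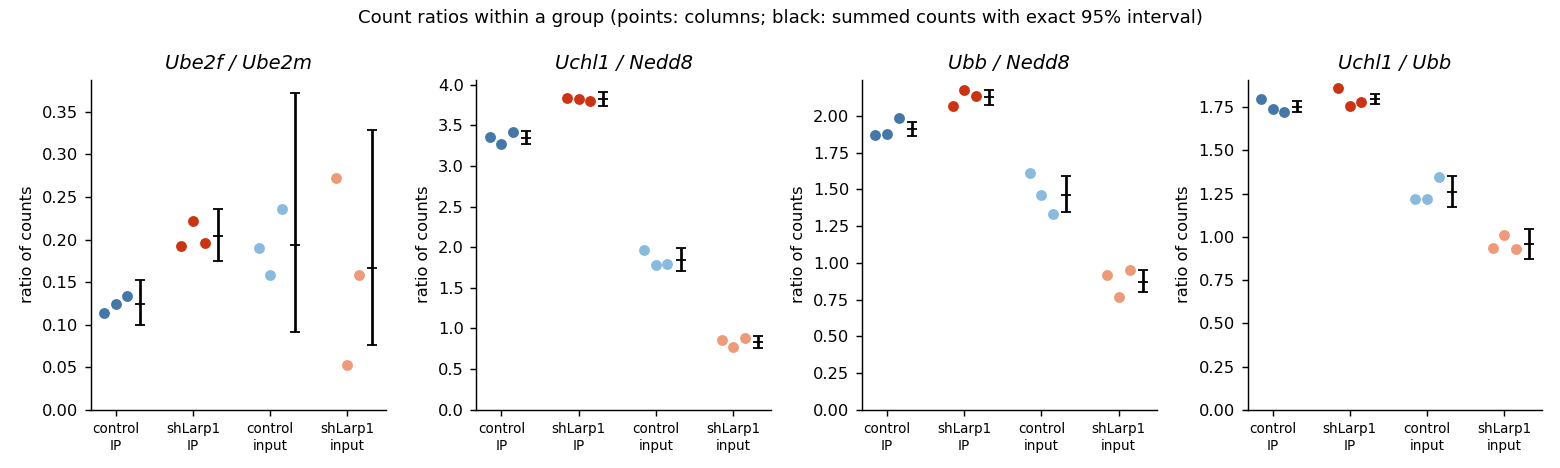
Ratios of counts between pairs of the genes within each group, on axes that start at 0; points are columns and bars are 95% counting intervals of the summed ratio. Ube2f per Ube2m stands at 0.124 and 0.204 in IP, and Uchl1 per Nedd8 falls from 1.84 to 0.835 in input.

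In IP, 1 of the 7 genes was called higher (Ube2f) and none lower, where 0.719% of 8766 genes were called higher and 4.40% lower. The median of the 7 was 0.20, against -0.08 over all genes. In input, none was called higher and 2 lower (Uchl1 and Ubb), where 0.171% of 7588 genes were higher and 1.01% lower. The input median of the 7 was -0.12, against -0.14 over all genes. Since the genes were chosen with these values known, the counts stand beside the background as a description only.

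The change in IP was set against the change in input for each gene. Uchl1 stood 1.36 higher in IP (1.24 to 1.47), a 2.56-fold difference between the changes, and Ubb 0.93 higher (0.80 to 1.05), or 1.9-fold. These 2 of 7 genes were called higher and none lower, where 1.39% of 7581 genes were called higher and 5.58% lower. Ube2f had 1.28 with an interval from 0.03 to 2.54, which spans 1.5-fold. Ube2m had 0.37 (-0.17 to 0.90), Nedd8 0.02 (-0.11 to 0.15), Nae1 -0.63 (-1.46 to 0.20) and Uba3 -1.51 (-4.20 to 1.18).

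IP was also compared with input within each virus, which shares the same 4 groups with the comparisons above. With the control virus Uchl1 was higher in IP by 0.68 (0.61 to 0.75), and with shLarp1 by 2.04 (1.95 to 2.14), or 4.11-fold. Ubb went from 0.21 (0.13 to 0.28) to 1.13 (1.04 to 1.22). Nedd8 had -0.18 (-0.27 to -0.08) and -0.15 (-0.24 to -0.06). These values depend on the scaling between IP and input. With upper-quartile factors Uchl1 had 0.20 and 1.54, of which the former was no longer called, Ubb -0.28 and 0.63, the latter no longer called, and Nedd8 -0.66 and -0.66. With total counts Uchl1 had 1.66 and 3.38, Ubb 1.19 and 2.47 and Nedd8 0.80 and 1.19, all called higher. Ube2m had 0.39 (-0.00 to 0.80) and 0.75 (0.38 to 1.15), Ube2f -0.25 (-1.15 to 0.80) and 1.04 (0.14 to 2.12), and Nae1 -0.02 (-0.69 to 0.72) and -0.67 (-1.19 to -0.11). Uba3 had 3.68 (1.18 to 9.0) and 1.76 (0.37 to 3.65), of which the former rests on 1 input count.

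With the control virus 2 of the 7 genes were called higher in IP than input, Uchl1 and Uba3, where 23.0% of 8773 genes were called higher and 12.5% lower. With shLarp1 the 2 were Uchl1 and Ubb, where 25.9% of 8771 genes were higher and 13.1% lower. None of the 7 was called lower with either virus. Medians of the 7 were 0.21 and 1.04, against 0.38 and 0.64 over all genes. Of the 19 neuron markers, 12 were called higher in IP with the control virus and 14 with shLarp1, and their medians were 1.76 and 1.87. The enrichment of Uchl1 with the control virus lay below that median and with shLarp1 above it.

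**Figure D3:**
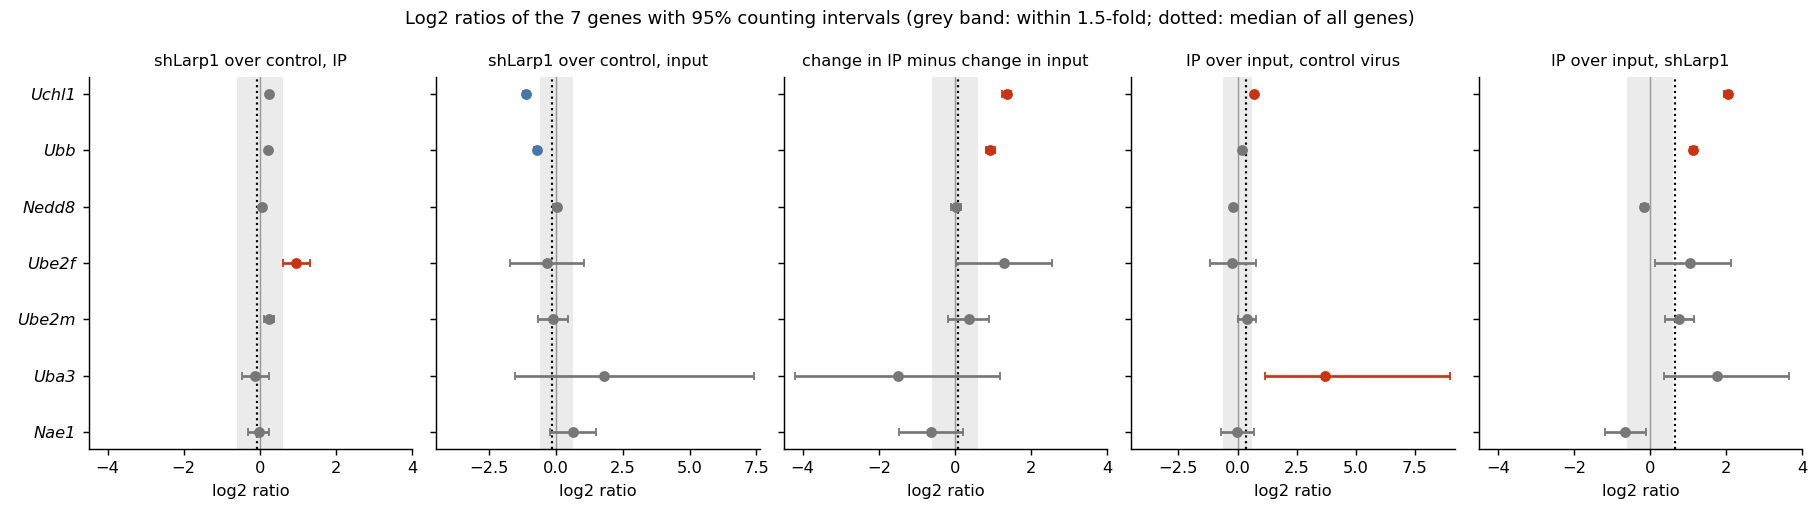
Log2 ratios of the 7 genes in the 5 comparisons, with 95% counting intervals, red where called higher and blue where called lower; the grey band is 1.5-fold, the dotted line the median of all genes, and the horizontal ranges differ between panels. Uchl1 lies at 0.24 in IP and -1.12 in input, Ube2f at 0.96 in IP, and the interval of Uba3 in input runs from -1.53 to 7.42.

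The rest of the pathway was read from lists with 133 genes besides the 7, of which 118 passed the filter. In IP, 2 of the 118 were called higher and 1 lower, where 0.719% of all genes were higher and 4.40% lower. Their median was 0.01, with 59 above 0 and 59 below, against 3546 and 5204 of all genes. In input none was called higher and 1 lower, where 0.171% of all genes were higher and 1.01% lower. Leaving aside genes with a group at 0 counts, the input median was -0.20, with 34 above 0 and 74 below. Over all genes 3170 lay above 0 in input and 4079 below, and a gene with equal raw counts had -0.20. For the change in IP against that in input (the interaction), 1 of the 118 was called higher and 5 lower. Over all genes 1.39% were higher and 5.58% lower. Those 5, Usp9x, Ube2d3, Ube2j2, Uba2 and Asb6, were also called lower in IP than input with both viruses. Their values there were -1.39 (Ube2j2) to -4.63 (Asb6) with the control virus and -2.47 to -5.50 with shLarp1.

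Among the other hydrolases of the family of Uchl1, Uchl3 had -0.05 in IP and -0.08 in input, on 352 and 379 IP counts. Uchl5, a deubiquitinase of the proteasome, had 0.42 (0.11 to 0.74) in IP and -0.58 in input. Bap1, a nuclear deubiquitinase of histone H2A, had 89 and 129 IP counts and 3 and 1 input counts. None of the 3 was called in either fraction.

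Of 18 ubiquitin-recycling and abundant deubiquitinases, Usp48 was called higher in IP, at 28 and 92 counts (1.56, 0.94 to 2.23), and none was called lower or called in input. Otub1, which trims lysine 48-linked chains, had 0.17 in IP and -0.73 (-1.21 to -0.25) in input. Psmd14, the deubiquitinase of the proteasome lid, had -0.09 and -0.60. Usp9x stood the other way round from Uchl1, with -0.60 in IP and 0.53 in input, and its interaction of -1.13 was called lower. Usp15 was the highest of those with enough IP counts, at 0.44. Uba1, the main ubiquitin-activating enzyme, had 0.07 in IP and -0.22 in input.

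None of 27 ubiquitin-conjugating enzymes was called in IP or in input, with medians of 0.11 and -0.12. Ube2l3 had 0.15 in IP and -0.09 in input, and Ube2j1, an enzyme of endoplasmic reticulum quality control, had 0.44 in IP. Ube2d3 had -0.53 in IP and 0.38 in input, and Ube2j2 -0.62 and 0.46. The interactions of both were called lower, at -0.92 for Ube2d3. Ube2f was the one conjugating enzyme called in IP among these 27 and the NEDD8 pair.

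Downstream of the conjugating enzymes, 7 genes of NEDD8 ligation and removal passed the filter. Dcun1d5, a scaffold that helps load NEDD8 on cullins, was called lower in IP, with 160 and 60 counts (-1.57, -2.02 to -1.13), while its input counts were 3 and 4. Rbx1, the RING partner of Ube2m, had 0.05 in IP and 0.17 in input. Rnf7, the RING partner of Ube2f, had -0.06 in IP and -0.66 (-1.14 to -0.20) in input, and was called in neither. Nub1, which lowers NEDD8 levels, had 0.20 in IP and 18 and 8 input counts. Of 7 cullins none was called: Cul1 had -0.10 and Cul3 0.05 in IP, and Cul5, the cullin served by Ube2f, named outside the rule for its tie to Ube2f, had 59 and 71 IP counts (0.11).

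All 10 subunits of the COP9 signalosome passed the filter and none was called in IP, with a median of 0.09. In input Cops6 was called lower, at 97 and 48 counts (-1.21, -1.74 to -0.70), and the list had a median of -0.68. The interaction of Cops6 was 1.32 (0.81 to 1.84), beside 1.36 for Uchl1. Cops9 had -0.10 in IP and 0.16 in input, Cops8 had -0.23 in IP and Gps1 had 0.34. Cops5, the catalytic subunit, had -0.02 in IP and 44 and 24 input counts.

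Of 19 cullin adaptors, Fbxl5, the F-box protein of iron sensing, was called higher in IP, with 10 and 68 counts (2.61, 1.65 to 3.74). Elob had -0.00 in IP and 0.04 in input, and Skp1a 0.10 and -0.38. Dcaf8 and Dcaf7 marked the ends among those with enough IP counts, at -0.39 and 0.48, and the interaction of Asb6 was called lower. Of 26 genes of other ubiquitin-like modifiers none was called in IP or input. Map1lc3b had -0.02 in IP, Gabarap 0.08 in IP and -0.43 in input, Ufc1 0.35 and -0.30, and Uba2, of the SUMO-activating enzyme, -0.53 and 0.44 with an interaction of -0.97 called lower.

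**Figure D4:**
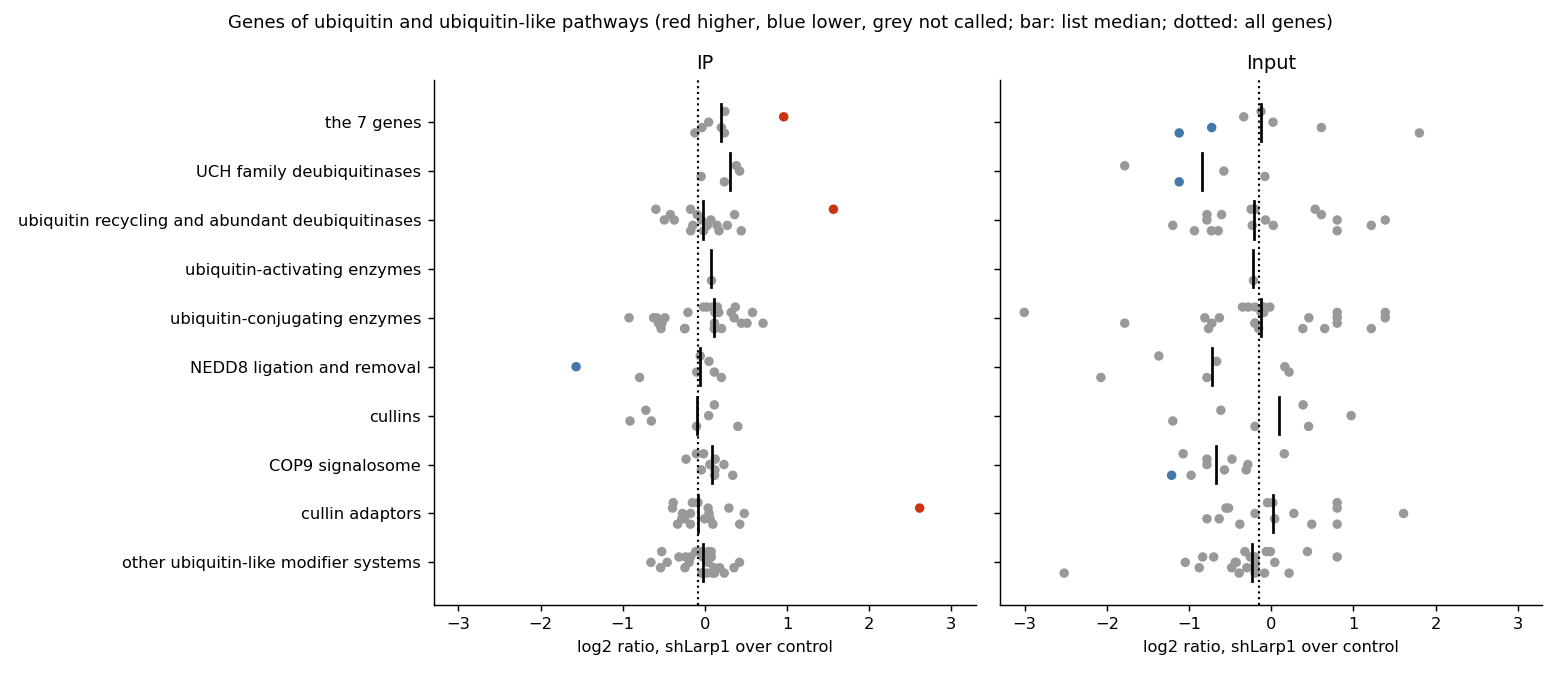
Log2 ratio of each gene of the pathway lists that passed the filter, by list, in IP and in input; red points are genes called higher, blue points genes called lower, bars list medians and the dotted line the median of all genes; genes with a group at 0 counts are left out. In IP the called genes besides Ube2f are Usp48, Dcun1d5 and Fbxl5, and in input Uchl1, Ubb and Cops6.

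Genes most like the members were sought by the distance between log2 levels in the 4 groups, each centred on its own mean, among 1503 genes with at least 50 counts in every group. Uchl1 was closest to Aldoa (distance 0.170), which had 0.06 in IP and -0.99 in input, then to Snrpn (0.249), whose reads may be shared with the overlapping Snurf, and to the glycolytic enzyme Tpi1 (0.260). Ubb was closest to Otub1 (0.0270), Prelid1 (0.0754) and Ociad1 (0.0996). Nedd8 was closest to the prefoldin subunit Pfdn5 (0.0127), Aprt (0.0183) and Dpy30 (0.0332), and Ube2m to Dctn3 (0.0781), Park7 (0.107) and Fkbp1a (0.109). Distances of Uchl1 exceeded those of the other 3 genes, so fewer genes lay close to its pattern. Ube2f, Uba3 and Nae1 had under 50 input counts and were not matched.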

How the data were processed

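RNA was measured by nanopore cDNA-PCR sequencing, per the labels' protocols. The authors deposited a table of estimated counts, unscaled and written as integers. Per the submitters' processing notes, Salmon and minimap2 were used with GRCm39 (mm39). Of versions and strand use nothing is stated in the labels, so antisense and near-identical genes cannot be separated. Of the 15391 identifiers, 13711 had a symbol in a gene name table.

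The members, gene lists and rules were chosen with earlier results of these data known. Groups followed the sample labels. edgeR 4.0.16 in R 4.3.3 gave the filter (filterByExpr, minimum count 10, 8773 genes) and TMM factors over the 12 columns. Counts were summed per group, and log2 ratios were given exact Clopper-Pearson 95% intervals, calculated with SciPy 1.17.1. For the difference of changes 0.5 was added to each count. The rule was tested on data simulated with counting noise only, where it held in IP. In simulated input the scaling left unchanged genes slightly above 0, and intervals covered the truth slightly less often than stated. Spread beyond counting noise was not simulated. With this scaling a gene with equal raw counts had -0.15 in IP and -0.20 in input. Named pathway genes were all those called between viruses or in the difference of changes (the rule also took those called between IP and input, of which only some are named, such as Bap1 and Cops5), plus up to 4 per list: those with most IP counts, and the lowest and highest in IP with at least 100 counts in each IP group. Cul5 and the genes of the macrophage, glia, fibroblast and neuron marker lists were named outside it. Some genes that this rule names are not reported here.

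Alternatives were other scalings, other fold rules, each column left out, and tests that take columns as replicates (edgeR quasi-likelihood, with and without the column number as a block, and DESeq2 1.42.0).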

Additional observations from a re-analysis of the deposited data

Results flagged for a closer look

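The change with shLarp1 differed between IP and input for Uchl1 by a log2 difference of 1.36 and for Ubb by 0.93, and each counting interval lay beyond 1.5-fold. Each group is 1 sample, so the interval compares these libraries, and the difference between conditions was not tested. In input the neuron marker sum differed by -0.34 (-0.57 to -0.11 under 4 other scalings) and the macrophage marker sum by -0.61 (-0.84 to -0.37), against -0.02 and -0.01 in IP (-0.01 to 0.11 and 0.00 to 0.12). The part of these sums in either value was not tested.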

How the results depend on the processing

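Of the counts of members called, 184 values over all alternatives stayed within 1.5 times and 36 moved. Called higher in IP (1 gene) became 5 where an interval only had to leave 0, 0 beyond 2-fold, 0 to 1 on leaving out columns, and 4 by each of edgeR's quasi-likelihood test, that test with the replicate block and DESeq2. Called lower in input (2 genes) became 1 with DESeq2's size factors, with upper-quartile factors, with TMM on a control IP reference and beyond 2-fold, and 1 to 2 on leaving out columns; DESeq2's test called 1 gene higher there. The interaction count (2) became 1 beyond 2-fold. For IP against input with the control virus, higher calls (2) became 1 with upper-quartile factors, where Uchl1 fell to 0.20, 5 with total counts, 1 beyond 2-fold and 4 with DESeq2's test; lower calls (0) became 1 for intervals leaving 0 and with the quasi-likelihood test, replicate block included. With shLarp1, higher calls (2) became 1 with upper-quartile factors, 6 with total counts and 5 for intervals leaving 0 and with the quasi-likelihood test, replicate block included; lower calls (0) became 1 with upper-quartile factors, 2 for intervals leaving 0, 2 with the quasi-likelihood test, 1 with the replicate block and 2 with DESeq2's test. Over all genes, 1173 of 8766 were higher in IP for intervals leaving 0, and 14 beyond 2-fold. The quasi-likelihood test called 596 of 8773 genes higher there and DESeq2's test 384 of 8771. With total counts, 4549 of 8773 genes were higher in IP than input with the control virus and 6183 of 8771 with shLarp1. For intervals leaving 0, 3937 of 8771 were higher with shLarp1. Beside these shares the member counts are a description only. The cause of the moves was not tested.

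The input median of all genes, -0.14, was 0.07 with DESeq2's size factors, 0.00 with upper-quartile factors, -0.38 with total counts and 0.09 with TMM on a control IP reference, so input values are relative to it; input calls over all genes went from 13 higher and 77 lower to 181 and 35, 117 and 43, 7 and 204, and 214 and 29. The column numbers did not pair the samples: correlations of the 18 same-numbered pairs were -0.15 to 0.07 over 598 genes, and a column correlated best with its own number in 4 of 36 checks. Depth limits Uba3, Ube2f and Nae1 in input.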
